A study of Mus musculus with 4 samples.

Results

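The complement genes described here are 9 rows of a table of 52636 genes, taken by symbol: Hc, C2, C3, C4b, C6, C7, Cfb, Cfd and Cfi. Hc is the mouse gene for complement C5. The set was chosen because Hc was much higher in the Yap knockout than in control lungs, so the values of the members in that contrast are given as a description and without a test. Gene expression was measured by RNA sequencing of whole lungs from C57BL/6 mouse embryos at embryonic day 14.5. The 2 control libraries are labelled wild type, and the other 2 carry a Yap conditional knockout (Yap CKO), specific to the epithelium according to the series title. The sources used here name no Cre driver and do not say whether embryos were pooled, so the spread between the libraries of a group may be technical. In a whole-lung library, fewer cells of a type and less RNA per cell cannot be told apart.

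Complement is a cascade of plasma proteins that marks and lyses targets and calls in immune cells. Recognition proteins or spontaneous turnover lead to convertases, built from C2 and C4b or from factor B and C3b, which cleave C3 and then C5. Cleavage of C5 releases the anaphylatoxin C5a, and the remaining C5b gathers C6, C7, C8 and C9 into the membrane attack complex. The liver makes most plasma complement, and epithelia, fibroblasts and macrophages of other organs, the lung among them, make part of the components locally.

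Promoters are shown for 3 genes, picked after their values were seen: Hc and the carboxypeptidase N gene Cpn1, both higher in Yap CKO, and C3, a paralog of Hc whose groups overlapped. Entries were found for 5 of the 9 members in the RefSeq table of build GRCm38.p6, namely Hc, C3, C6, C7 and Cfd. Each line gives the bases upstream of every annotated start, 5′ to 3′ on the gene's own strand, from chr2:35061439-35061662 (Hc, minus strand), chr19:43986557-43986770 (Cpn1, minus strand) and chr17:57228137-57228386 (C3, minus strand). Capitals mark matches to the motifs described next.
Hc: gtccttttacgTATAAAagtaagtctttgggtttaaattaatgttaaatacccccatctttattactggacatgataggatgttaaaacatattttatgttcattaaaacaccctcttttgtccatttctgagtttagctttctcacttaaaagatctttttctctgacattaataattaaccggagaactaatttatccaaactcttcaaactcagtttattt
Cpn1: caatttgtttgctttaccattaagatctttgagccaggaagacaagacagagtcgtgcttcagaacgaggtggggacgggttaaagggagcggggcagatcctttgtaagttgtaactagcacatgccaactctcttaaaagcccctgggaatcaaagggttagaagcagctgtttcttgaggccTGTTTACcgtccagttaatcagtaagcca
C3: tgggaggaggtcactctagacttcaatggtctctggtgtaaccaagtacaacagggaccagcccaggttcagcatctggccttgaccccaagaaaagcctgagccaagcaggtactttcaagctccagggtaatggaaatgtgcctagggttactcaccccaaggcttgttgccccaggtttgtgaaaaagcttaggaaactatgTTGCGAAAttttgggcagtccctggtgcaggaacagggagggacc

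The 250 bases before each RefSeq start were searched on both strands for 7 short motifs. The TATA element was searched as TATAAA. The motif of the TEAD factors, which carry YAP to DNA, was searched as GGAATG. Motifs of liver factors were the HNF4 motif CAAAGTNCA, the forkhead motif TGTTTAC and the C/EBP motif TTGCNNAA. For inflammation the STAT motif TTCNNNGAA and the kappa B motif of NF-kB were searched. Hc has the TATA element at position -239, counted from the RefSeq start, and 12.4% of the 32851 promoters of this length hold that motif. Cpn1 has the forkhead motif at -65 (3.17% of promoters). In C3 the single match was the C/EBP motif at -45 (9.56%). C7 holds a STAT match at -164 (7.02%) and a TATA element at -6. The HNF4 motif (1.19%) and the kappa B motif (7.25%) matched in none of Hc, Cpn1, C3 and C7. No motif of the 7 matched in C6 or Cfd, and the TEAD motif (12.6% of promoters) matched in none of the 5 members. These are matches of letters in a window and no measure of binding.

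Depth ran from 17756301 to 21333878 reads counted to genes per library, and values are normalized read counts, in which a count of 0 allows up to 3 reads, or 2.80 to 3.51 normalized counts by library. Lung identity was clear in every library, with the epithelial factor gene Nkx2-1 between 2569 and 3333 and the mesenchymal factor gene Tbx4 between 4101 and 5147. Yap1 had 5686 (control 1), 3467 (control 2), 3209 (Yap CKO 1) and 4483 (Yap CKO 2) normalized counts, a log2 difference of -0.23 ± 0.25 (SE, limma adjusted p = 0.683). The groups overlapped, and without control 2 the difference was -0.58 (limma adjusted p = 0.0108), so over all 4 libraries Yap1 does not check the labels, and directions below are those of the libraries labelled Yap CKO. Heart muscle markers summed to 1339 and 49136 in controls 1 and 2 and to 10932 and 1822 in Yap CKO 1 and 2. Control 1 held the myeloid granule gene Mpo at 264.6, against 1.92 to 5.59 in the other libraries. Mpo was named after its values were seen.

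Hc showed by far the largest difference of the 9 genes. Hc (ENSMUSG00000026874, mm10 chromosome 2, 34983331 to 35061438, minus strand) stood at 30.0 normalized counts in control 1 and 19.9 in control 2. In Yap CKO 1 and 2 it stood at 609.5 and 473.5. Both knockout libraries are far above both controls, and even the lower knockout value is 15.8-fold the higher control value. The means were 25.0 ± 7.19 in control and 541.5 ± 96.2 in Yap CKO (SD, n = 2), a ratio of 21.7 and a difference of 4.40 ± 0.26 (SE) on the log2(count + 1) scale. This rests on 48 reads in the controls and 1142 in the knockouts, whose ratio has an exact 95% interval of 15.9 to 29.0 for counting error alone. By this log2 difference Hc ranked 27 among the 19472 genes with a mean of at least 10 normalized counts, the filter used for all tests. An antisense gene, Gm13449, covers 1.21% of its exon bases and held at most 1.92 normalized counts in any library.

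The other terminal components were low or silent. C7, whose product joins C5b and C6 and inserts into the membrane, had 10.7 and 15.2 normalized counts in controls 1 and 2. In Yap CKO 1 and 2 it had 17.3 and 22.4. The groups lie apart by a narrow margin, with a log2 difference of 0.59 ± 0.40. The ratio of reads (42 against 24) had a counting interval of 0.925 to 2.70, which reaches below 1 and leaves out the spread between libraries. C6, encoded near C7 on chromosome 15, held 0 reads in all 4 libraries. Among terminal genes outside the set, C8b also held 0 reads throughout, C8a had at most 2.91 normalized counts and C9 at most 1.17. These genes were named after their values were seen. C8g, which encodes the small subunit of C8, was the exception at 77.5 and 57.3 in the controls and 80.8 and 96.0 in Yap CKO (log2 difference 0.40, limma adjusted p = 0.455).

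**Figure D1:**
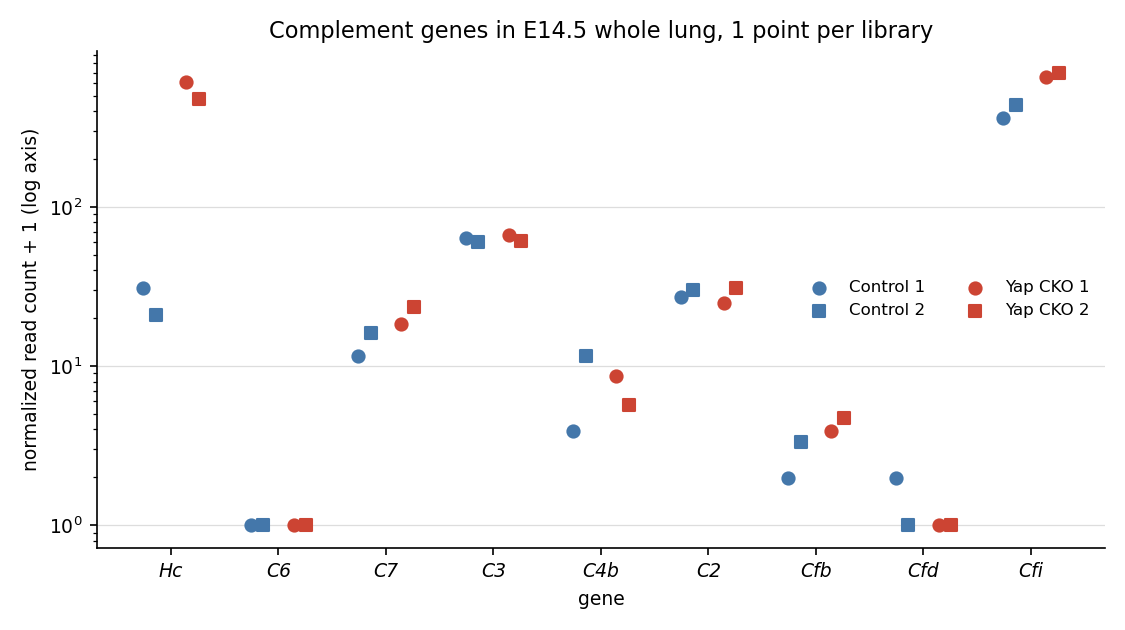
Normalized read count + 1 (vertical log axis) of the 9 complement genes, 1 point per library, circles for replicate 1 and squares for replicate 2, blue for control and red for Yap CKO. Hc has 19.9 and 30.0 counts in control and 473.5 and 609.5 in Yap CKO, Cfi is higher in Yap CKO by a smaller step, and C3 and C2 overlap between groups.

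The central components showed no separation between the groups. C3, the component on which all routes of activation meet, had 63.0 and 59.6 normalized counts in the controls, against 65.4 and 60.6 in the knockouts. The groups overlap, and the ratio of reads was 1.02 with a counting interval of 0.792 to 1.33. C4b, which covers targets on the classical and lectin routes, was near the limit of detection at 2.91, 10.5, 7.69 and 4.66 in the same order. It stayed below the filter and the groups overlap. Its near-identical neighbour C4a had 19.4, 29.2, 44.2 and 27.0, and reads of the pair may be split between them by the counting. Summed, the pair differed by 0.43 on the log2 scale, against 0.06 for C4b alone.

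Of the convertase proteases, C2 overlapped between the groups and Cfb was barely detected. C2, the protease of the classical and lectin convertase, had 26.2 and 29.2 normalized counts in controls 1 and 2 and 24.0 and 29.8 in Yap CKO 1 and 2, and the groups overlap. Cfb, which encodes the protease of the alternative convertase, had 0.97, 2.34, 2.88 and 3.73 in the same order. Those are 3 reads in the controls and 7 in the knockouts, a ratio of 2.08 with a counting interval of 0.476 to 12.5. The annotation limits both values. C2 and Cfb lie next to each other on chromosome 17, and Gm20547, a gene model on the same strand, covers 42.8% of the exon bases of C2 and 79.5% of those of Cfb. Gm20547 was at 0 in every library. No source used here says how reads in shared exons were treated, so both genes may be undercounted.

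The remaining proteases were at opposite ends of the range. Cfd, which encodes the protease that activates factor B, had 1 read in control 1 and 0 in the other libraries. Cfi encodes factor I, which cuts C3b and C4b into inactive forms with the help of cofactors and so limits the cascade. It was the most abundant member per exon length. Cfi (ENSMUSG00000058952, mm10 chromosome 3, 129835884 to 129875332, plus strand) had 359.5 and 437.4 normalized counts in the controls. In Yap CKO 1 and 2 it had 654.7 and 691.6. The groups do not overlap, with means of 398.4 ± 55.0 and 673.2 ± 26.1 (SD, n = 2), a ratio of 1.69 and a log2 difference of 0.76 ± 0.14. The ratio of reads was 1.71, with an interval of 1.56 to 1.87 for counting error alone. No other annotated gene shares exon bases with Cfi.

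Set side by side, 5 of the 9 members (Hc, C7, C3, C2 and Cfi) passed the filter and 4 (C6, C4b, Cfb and Cfd) did not. The groups lay apart with Yap CKO higher for 4 of the 9 (Hc, C7, Cfb and Cfi), and for 25.2% of all tested genes. Because the difference of Hc in this contrast chose the set, nothing is read from this count.

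Per kb of exon, the order of the members differed between the groups chiefly through Hc. In control, Cfi led at 179.5 ± 24.8 normalized counts per kb, followed by C3 at 11.9 ± 0.461, C2 at 7.15 ± 0.561, C7 at 4.83 ± 1.20 and Hc at 3.98 ± 1.15 (SD, n = 2). C7 and Hc do not differ beyond their spread there, and neither do C4b (1.18), Cfb (0.586) and Cfd (0.526) among themselves. In Yap CKO, Cfi at 303.2 ± 11.8 was followed by Hc at 86.4 ± 15.4, then by C3 at 12.3 ± 0.658, C7 at 7.41 ± 1.34 and C2 at 6.96 ± 1.06. Hc thus passed C3, C2 and C7, while C7 and C2 do not differ beyond their spread. Within a library, Hc stood per kb at 0.392 and 0.274 of C3 in controls 1 and 2, and at 7.65 and 6.42 times C3 in Yap CKO 1 and 2. Cfi exceeded C3 in every library, by 13.2 and 17.0 times in the controls and 23.2 and 26.5 times in Yap CKO.

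**Figure D2:**
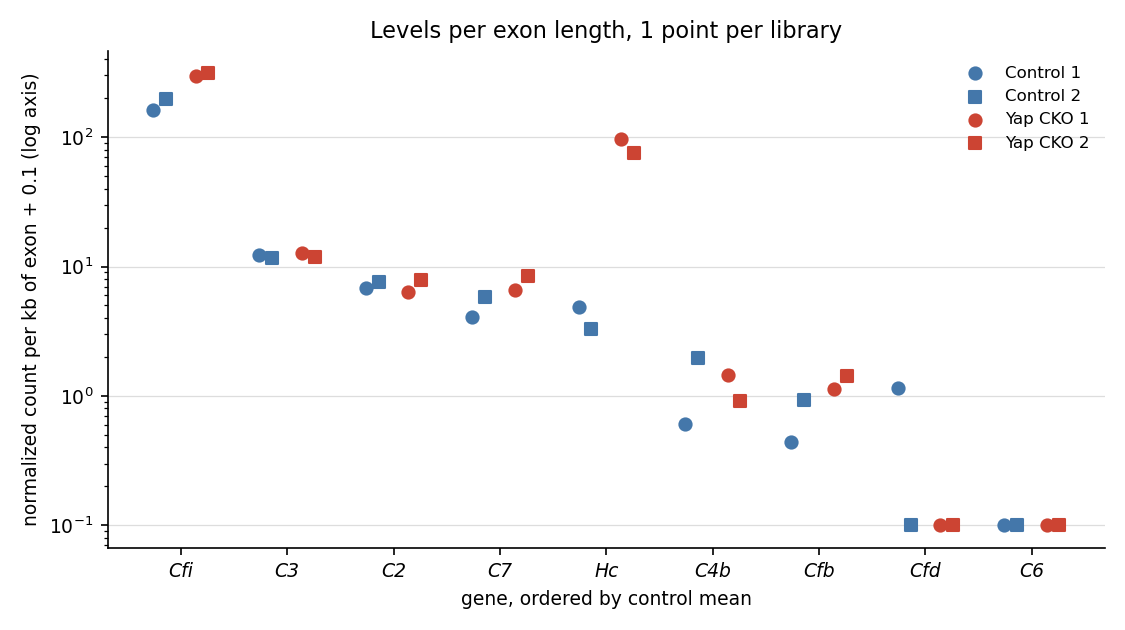
Normalized count per kb of exon, with 0.1 added, on a vertical log axis, for the 9 members ordered from left to right by their control mean. Points are single libraries, with circles for replicate 1 and squares for replicate 2, blue for control and red for Yap CKO. Cfi leads in both groups, and Hc is level with C7 in control but second in Yap CKO.

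Of the 49 other complement genes, 31 passed the filter, and 1 rose and none fell at an adjusted p under 0.05 with limma, against 1.19% and 1.15% of all tested genes. With edgeR and with DESeq2 on the recovered reads the counts were also 1 and 0. In either direction limma called 2.33% of all tested genes, edgeR 2.07% and DESeq2 5.54%. At an unadjusted p under 0.05 there were 7 of the 31 (22.6%), beside 3672 of 19472 genes (18.9%). The median log2 difference of the 31 was -0.08 and that of all genes -0.0050. Without control 1 there were 2 rises and 4 falls (12.6% of all genes called) and without control 2 there were 5 rises and 1 fall (12.6%). Without Yap CKO 1 (0.0103%) or Yap CKO 2 (0.0359%) limma called none of them.

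The rise was in Cpn1, a soluble regulator. Cpn1 encodes the catalytic subunit of carboxypeptidase N, a plasma enzyme that trims the anaphylatoxins C3a and C5a. Cpn1 (ENSMUSG00000025196, mm10 chromosome 19) went from 92.1 and 74.8 normalized counts in controls 1 and 2 to 276.9 and 194.8 in Yap CKO 1 and 2. Both knockout libraries are above both controls, and the log2 difference was 1.47 ± 0.23 (limma adjusted p = 0.0352). The call ended without Yap CKO 1 (0.412) or Yap CKO 2 (0.175). It also ended without the filter (0.101) or the intensity trend (0.118), while edgeR (0.0393) and DESeq2 (0.000247) kept it. Cpn2, the gene of the enzyme's other subunit, named after its values were seen, had at most 1.17 normalized counts.

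Other abundant soluble regulators did not pass. Serping1, which encodes the C1 inhibitor, had 1012 and 894.6 in controls 1 and 2 and 866.2 and 892.0 in Yap CKO 1 and 2 (log2 difference -0.11, adjusted p = 0.625 with limma). Clusterin (Clu), which keeps the terminal complex soluble, had 1308 and 1523 against 1096 and 1604 (-0.09, adjusted p = 0.836). Properdin (Cfp), which stabilises the alternative convertase, had 242.3 and 225.7 against 307.7 and 285.2 (0.34, adjusted p = 0.26). Of these 3 genes Cfp alone had groups that lay apart with Yap CKO higher. Both controls lie above both knockouts for Serping1.

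Recognition proteins and the proteases that they carry did not pass either. Of 6 measured recognition genes limma called none, 1 had an unadjusted p under 0.05 (16.7%, beside 18.9% of all tested genes), and edgeR and DESeq2 called none. C1qc, a chain of the C1q molecule that macrophages make, had 348.9 and 468.9 in controls 1 and 2 and 298.0 and 275.9 in Yap CKO 1 and 2 (-0.49, adjusted p = 0.198, and -0.71 with 0.0115 without control 1). C1qb had 310.1 and 354.3 against 283.6 and 214.4 (-0.43, adjusted p = 0.268). C1qc and C1qb were lower in each knockout library than in each control, as were 4984 of the 19472 tested genes. The remaining chain gene, C1qa, named after its values were seen, overlapped between the groups. It had 156.0 and 223.4 against 163.4 and 135.2 (-0.33, limma adjusted p = 0.493). Of the 4 measured initiating proteases limma called none, with none at an unadjusted p under 0.05 and none by edgeR or DESeq2. The lectin pathway protease gene Masp1 ranged from 50.4 to 149.7 in control and 81.1 to 101.9 in Yap CKO. Its log2 difference of 0.06 became 0.84 (adjusted p = 0.0439) without control 2. C1ra, a protease of the C1 complex, had 94.0 and 72.5 against 73.1 and 67.1.

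Membrane regulators and receptors showed no call. Of 8 membrane regulators limma called none, 3 had an unadjusted p under 0.05 (37.5%, beside 18.9% of all tested genes), and edgeR and DESeq2 called none. Cr1l, also called Crry, is the rodent cofactor that lets factor I cut C3b on host cells, and had 595.0 and 712.2 in controls 1 and 2 and 739.3 and 871.5 in Yap CKO 1 and 2. Its log2 difference was 0.30 (adjusted p = 0.307), and 0.43 (0.0469) without control 2. Susd4, another inhibitor gene, had 513.6 and 471.3 against 447.1 and 417.6 (-0.19, adjusted p = 0.463). Of 6 measured receptors limma called none, 1 had an unadjusted p under 0.05 (16.7%, beside 18.9%), and edgeR and DESeq2 called none. The largest counts were those of Cd93, at 4949 and 6076 against 5435 and 5959, and of C1qbp, at 1704 and 1931 against 1757 and 1821. Both overlap between the groups.

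The receptors of C5a were chosen for mention after their values were seen. C5ar1 had 78.5 and 85.4 normalized counts in controls 1 and 2 and 40.4 and 42.9 in Yap CKO 1 and 2. Both knockout libraries are near 40 and both controls near 80, yet the log2 difference of -0.96 ± 0.23 did not pass (limma adjusted p = 0.10, unadjusted p = 0.0054). C5ar2 was below the filter at 13.6 and 8.19 against 4.81 and 4.66. Myeloid cells carry much of C5ar1. The 14 macrophage and leukocyte markers summed to 5161 and 5745 in controls 1 and 2, with Mpo giving 264.6 in control 1. In Yap CKO 1 and 2 they summed to 4696 and 4653. Of the 13 measured, limma, edgeR and DESeq2 called none, 2 had an unadjusted p under 0.05 (15.4%, beside 18.9% of all tested genes), and the median log2 difference was -0.29. The largest counts were those of Lyve1, at 1366 and 1437 against 1352 and 1159, and of Mrc1, at 1031 and 892.3 against 855.7 and 927.5. By log2 difference 11 of the 13 were lower and 2 higher, beside 9858 and 9614 of all 19472 tested genes. Among the lower ones, named after their values were seen, Fcer1g had 319.8 and 360.2 against 215.4 and 244.2. Ptprc had 114.3 and 91.2 against 51.9 and 71.8. The part of these cells in the values of C1q genes and C5ar1 was not tested.

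**Figure D3:**
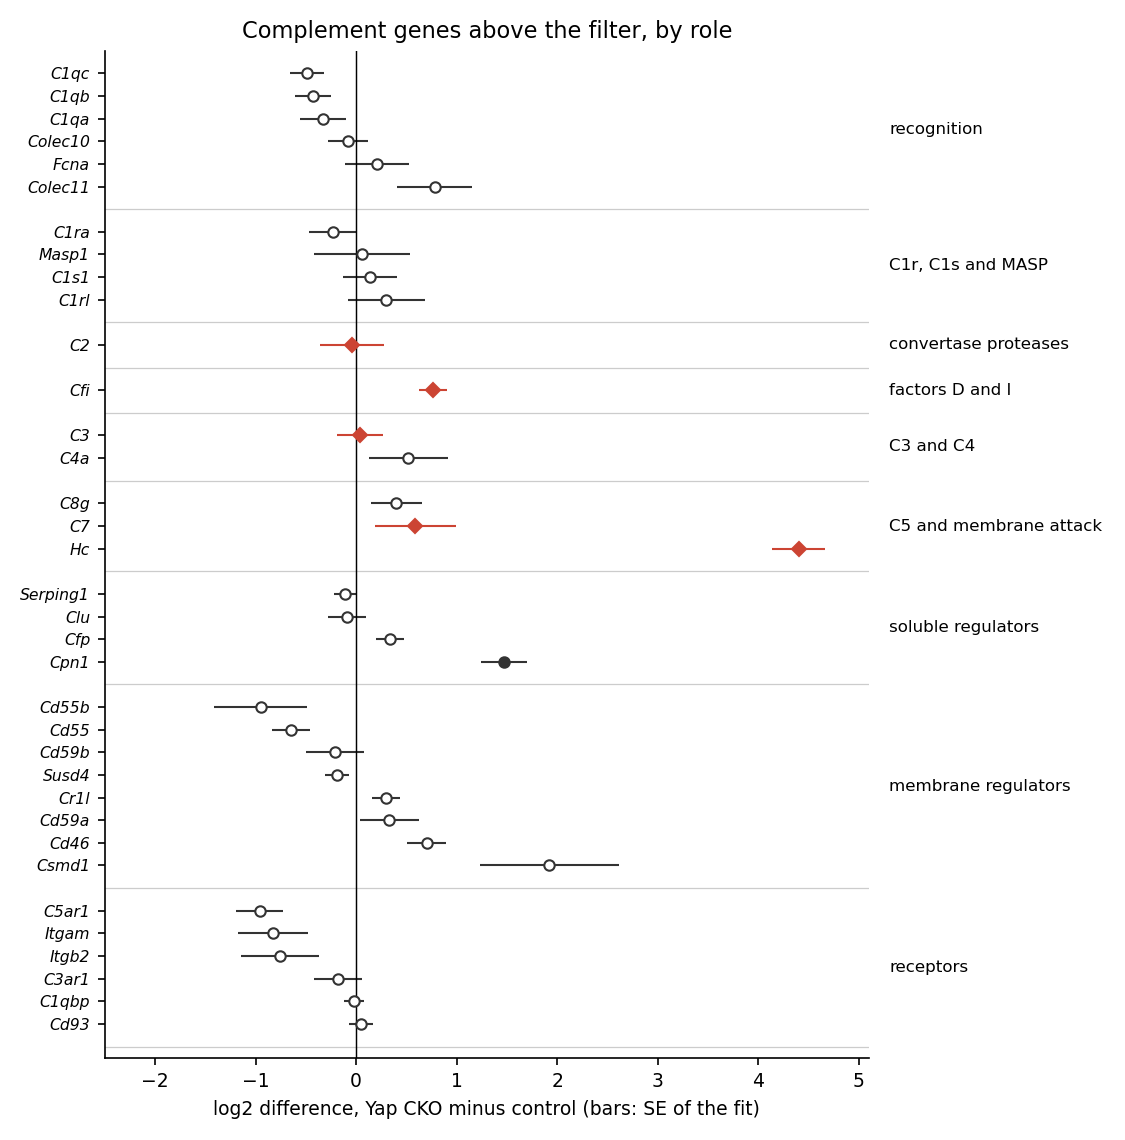
Log2 difference, Yap CKO minus control (horizontal axis), of complement genes above the filter, grouped by role, with bars of 1 standard error. Red diamonds are members of the described set, shown without a test, a filled circle is a gene with an adjusted p under 0.05 and open circles did not pass. Hc at 4.40 stands apart from all others, and Cpn1 at 1.47 is the filled circle.

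Genes of related programs were then set beside Hc. Liver transcription factors, which drive plasma protein genes in hepatocytes, held 4 rises and 0 falls among 13 measured with limma, against 1.19% and 1.15% of all tested genes, with Hnf4a, Foxa3 and Cebpa among the rises. DESeq2 called 1 fall besides, in Foxa2, a forkhead factor gene of lung and liver named after its values were seen, at 709.3 and 632.6 against 425.9 and 478.2. Hnf4a went from 0.97 and 1.17 normalized counts in controls 1 and 2 to 107.7 and 68.1 in Yap CKO 1 and 2 (limma log2 difference 5.39 ± 0.44, adjusted p = 0.00653). Foxa3, a forkhead factor gene, went from 59.1 and 45.6 to 247.1 and 140.8, and Cebpa from 229.7 and 215.2 to 439.4 and 402.7. The calls of Hnf4a, Foxa3 and Cebpa ended with limma without Yap CKO 1 or without Yap CKO 2, and also without the intensity trend.

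Hepatocyte markers moved with Hc in part. Their 16 genes summed to 259.7 and 383.6 normalized counts in controls 1 and 2 and to 1844 and 1079 in Yap CKO 1 and 2, and 4 of 8 measured rose with limma (Alb, Afp, Ttr and Apoa1), against 1.19% of all tested genes. Afp, the fetal plasma carrier gene, was at 17.4 and 43.3 against 1157 and 639.4, higher in Yap CKO 1 than in Yap CKO 2, as Hc was. The fibrinogen genes of the same list were at or near 0: Fga, Fgb and Fgg had at most 3.85 normalized counts in any library. Cps1, the urea cycle gene, was at 58.1 and 112.3 in the controls and 5.77 and 23.3 in Yap CKO, a fall by DESeq2 and not by limma or edgeR. Those 4 genes were named after their values were seen. The part of hepatocytes in the level of Hc was not tested. Per kb of exon, Hc had 97.3 and 75.6 normalized counts in Yap CKO 1 and 2 and Alb had 117.4 and 61.7, so Hc was below Alb in Yap CKO 1 and above it in Yap CKO 2.

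Intestinal and type 2 cell markers differed between the groups as well. The 12 intestinal secretory markers summed to 100.8 and 66.7 normalized counts in controls 1 and 2 and to 3835 and 2606 in Yap CKO 1 and 2, and 8 of 9 measured rose with limma, edgeR and DESeq2 alike, with Guca2a, Reg4, Tff3 and Spdef among them, against 1.19% of all genes with limma. Guca2a, Reg4, Tff3, Agr2, Atoh1 and Cdx2 were under 10 in both controls and passed the filter only through Yap CKO. Markers below the filter were not tested, so nothing is read from this share of rises. Of the intestinal identity factor genes in the intestinal list, both named after their values were seen, Cdx2 had 0 in both controls and 35.6 and 6.53 in Yap CKO 1 and 2 (limma adjusted p = 0.0793), and Cdx1 had at most 3.88 in any library. The 10 markers of type 2 cells, which make surfactant and are known to produce complement, summed to 10518 and 11160 in the controls and 14667 and 13799 in Yap CKO, and 5 of 9 measured rose and 1 fell with limma (1.19% and 1.15% of all genes), or 6 and 1 with DESeq2. Sftpb went from 264.6 and 311.1 to 2450 and 1655, and Sftpa1, Slc34a2 and Sftpc rose as well. Among 12 measured lung epithelial markers, Ehf and Elf5 rose and Sox2 fell with limma and edgeR, against limma's 1.19% and 1.15% of all genes. DESeq2 called 3 falls there, in Sox2, Foxa2 and the tight junction gene Cldn6, which was named after its values were seen. The part of any of these cell types in the level of Hc was not tested.

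**Figure D4:**
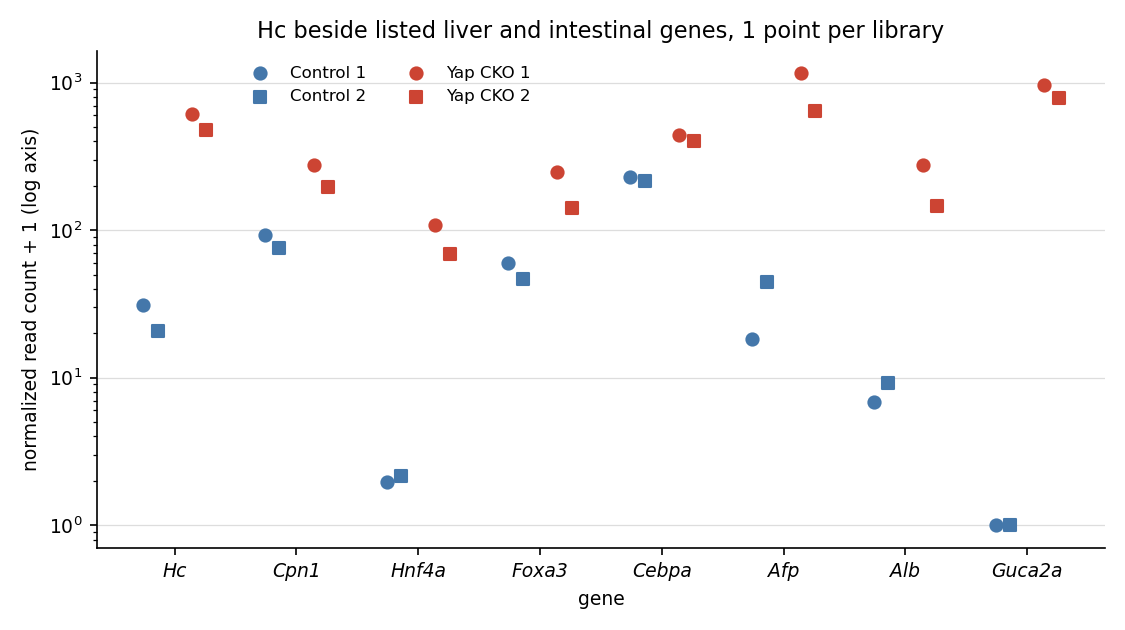
Normalized read count + 1 (vertical log axis) of Hc, Cpn1, 3 liver transcription factor genes, the plasma protein genes Afp and Alb and the intestinal hormone gene Guca2a. Circles are replicate 1 and squares replicate 2, blue for control and red for Yap CKO. All 8 genes are higher in both Yap CKO libraries, and all 8 are higher in Yap CKO 1 than in Yap CKO 2.

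Among measured genes of the programs that induce complement in inflammation, none was called as a rise. Only 7 of 19 acute phase and 13 of 20 interferon and NF-kB genes passed the filter, and the rest were not tested. The part of such programs in the level of Hc was not tested. Of 7 measured acute phase genes limma called none, 2 had an unadjusted p under 0.05 (28.6%, beside 18.9% of all tested genes), and edgeR and DESeq2 called none. Those 2, Lcn2 and Hp, named after their values were seen, were lower in Yap CKO. By log2 difference 6 of the 7 were lower and 1 higher, with a median of -0.21. The higher gene was that of the lipopolysaccharide-binding protein, Lbp, at 239.4 and 263.1 against 342.3 and 267.5. The signalling receptor gene Il6st was at 3658 and 4494 against 3681 and 3864. Of 13 measured interferon and NF-kB response genes, 1 fell and 0 rose with limma, edgeR and DESeq2, against limma's 1.15% and 1.19% of all tested genes, with a median of -0.22 (11 lower and 2 higher). The fall was in the adhesion gene Icam1, at 473.9 and 357.8 in the controls and 165.4 and 205.1 in Yap CKO (limma log2 difference -1.16 ± 0.19, adjusted p = 0.0392, and 0.0618 with the replicate number as a block). Of 11 measured genes of coagulation, the sister protease cascade of plasma, Serpinf2 rose, from 8.72 and 4.68 to 91.3 and 44.7, against 1.19% of all tested genes with limma. It was under 10 in both controls and passed the filter only through Yap CKO. The rest did not pass with limma or edgeR, while DESeq2 called 1 more rise, in the thrombomodulin gene Thbd, named after its values were seen. Serpinf2 encodes the plasmin inhibitor. The measured relatives of C3 and C5 in the same protein family were not called by limma, edgeR or DESeq2: A2m was at 455.5 and 332.1 against 153.8 and 281.5, and Cd109 at 895.4 and 852.5 against 854.7 and 983.4. Of these 2 genes 1 had an unadjusted p under 0.05, and without control 2 limma called A2m at -1.13 (adjusted p = 0.00356).

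Markers of other tissues held few calls by limma. Heart muscle markers were highest in control 2, where Hc was lowest, and without that library the log2 difference of Hc was 4.12. Of the 15 measured heart genes limma, edgeR and DESeq2 called none, with none at an unadjusted p under 0.05. The 9 erythroid markers summed to 69858 and 117319 in the controls and 67186 and 88332 in Yap CKO. Of these Epb42 rose with limma (1.19% of all tested genes) and DESeq2 but did not pass with edgeR (adjusted p = 0.0542). The 8 mesothelium markers summed to 4410 and 6172 against 4282 and 3447, and Muc16 fell with all 3 tools, against limma's 1.15% of all tested genes. The 12 lung mesenchyme markers summed to 109458 and 122970 against 104797 and 94594, with none called by limma or edgeR and 5 by DESeq2 (5.54% of all genes). At an unadjusted p under 0.05 with limma there were 7 (58.3%, beside 18.9% of all tested genes). Col1a1 and Col3a1, which encode fibrillar collagens, had the largest counts of these, and Col1a1 stood at 40799 and 50689 against 32560 and 27384. Limma called Col1a1 without control 1 (-0.76, adjusted p = 0.00289) or control 2 (-0.45, 0.019).

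The 5 genes with the profile most like that of Hc over the 4 libraries were Rfx6, Spink4, Sct, Ffar2 and Lyz1. Likeness was the distance between log2 values, each gene centred on its own mean, among 13706 genes above the filter, leaving out predicted genes, pseudogenes and sex-linked genes. The distances were 0.33, 0.34, 0.36, 0.57 and 0.64. Per kb of exon the Yap CKO means of Sct (265.3) and Spink4 (154.0) were above that of Hc (86.4), and those of Rfx6, Ffar2 and Lyz1 were below it. Sct, the gene of the hormone secretin, had 9.69 and 5.85 in controls 1 and 2 and 219.2 and 123.0 in Yap CKO 1 and 2. Rfx6, an endocrine transcription factor gene of pancreas and gut, had 5.81 and 2.34 against 110.6 and 84.8. With 4 libraries in 2 groups, any gene with a similar step between the groups ranks high on this measure.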

How the data were processed

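The authors deposited 1 table of normalized read counts, a signal scaled by 1 factor per library, for 2 control and 2 Yap CKO lung libraries. The submitters' processing notes list mm10, edgeR 3.18.1, DESeq 1.16.0, featureCounts 1.5.0-p1 and Bowtie2 2.2.9 without their roles, and neither annotation release nor strand setting. In each library 100% of the values were whole multiples of the smallest (within 0.001 reads), so reads were recovered. Names, positions and exon lengths came from GENCODE M21 (52403 of 52636 identifiers matched), and promoters from RefSeq.

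Values were tested as log2(normalized count + 1) with limma 3.58.1 in R 4.3.3 (intensity trend, two-sided, Benjamini-Hochberg over the 19472 genes with a mean of at least 10, threshold 0.05). The fit had 2 residual degrees of freedom and 4.54 added from other genes. Scripts were tested on simulated data. Alternatives were edgeR 4.0.16 and DESeq2 1.42.0 on recovered reads, other pseudocounts, filters and scalings, a replicate block, and leaving out each library. The members and gene lists were chosen with earlier results of these data known. Cpamd8 had no match. Named were all members, called genes of other complement roles with their role's abundant genes, the 2 most abundant of each role, up to 4 called genes (or the 2 most abundant) of each other list, and the 5 genes most like Hc. Results for some listed genes are not reported here.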

Additional observations from a re-analysis of the deposited data

How the results depend on the processing

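The log2 difference of Hc lay between 4.12 and 4.69 over 15 alternatives and that of Cfi between 0.62 and 0.90, without a change of direction. C7 lay between 0.35 and 0.83, while C3 (-0.02 to 0.10), C2 (-0.19 to 0.11) and C4b (-0.72 to 0.84) fell on both sides of 0. The 454 calls over all genes became 56 without the filter, 6 without the intensity trend and 1037 with DESeq2, and ranged from 2 to 2459 when 1 library was left out. Equal totals gave 291 rises and 178 falls, against 231 and 223 as deposited. The count of other complement genes called went from 1 to 0 without the filter or the trend, and from 0 to 6 when 1 library was left out. The cause was not tested. Myh6 reversed from 1.65 to -3.46 without control 1 and was called at 6.76 without control 2. The labels number the replicates alike without saying that numbers are shared by litter or day. With the replicate number as a block 342 genes and 1 other complement gene were called, and 3 of the 29 called genes picked for naming lost the call, Icam1 and Sox2 among them. Deviations of libraries with the same number correlated at -0.364 across genes, and crossing the numbers, a setting chosen after seeing the data, gave 972 calls and 1 other complement gene. All 29 lost the call without Yap CKO 1, 27 without Yap CKO 2, and none without either control. Low counts limit C4b, Cfb, Cfd and C6, for which a small change or a fall could not be detected at this depth, while genes as low in control, such as Hnf4a, were called when they rose far.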
